A study of Mus musculus with 44 samples.

Results

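The genes described here encode the enzymes that pass ubiquitin on to other proteins, the ubiquitin-conjugating enzymes (E2) and the ubiquitin ligases (E3), as they were read in ribosome-bound RNA of corticotropin-releasing hormone (Crh) neurons of the mouse amygdala. Members were taken by symbol alone: every measured gene whose symbol begins with Ube2, Ube3, Rnf, Trim, Fbxo, Fbxl or Fbxw, together with Pja1 and Pja2. The rule reads no measured value, but it was set with earlier results of these data known, and Pja1 and Pja2 were added by name, so that their values are a description and not independent evidence. This gave 151 of the 8203 measured genes. They comprised 29 E2 genes (Ube2), 3 ligases of the HECT type (Ube3), 60 RING finger ligases (58 Rnf genes, Pja1 and Pja2), 18 tripartite motif (TRIM) genes and 41 F-box genes (24 Fbxo, 9 Fbxl and 8 Fbxw). A symbol does not prove ligase activity, and Ube2d-ps is annotated as a transcribed pseudogene.

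Ubiquitin is a small protein that is activated by an E1 enzyme, handed to an E2 and joined to a substrate with the help of an E3, which chooses the substrate. HECT ligases take ubiquitin onto themselves before they pass it on, whereas RING and TRIM ligases hold the loaded E2 next to the substrate, and F-box proteins bring substrates to a cullin complex named SCF. In neurons these enzymes are known for the turnover of receptors, scaffolds and signalling proteins at synapses, and Ube3a, which is expressed from the maternal copy in neurons, for its loss in Angelman syndrome.

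All mice were adult offspring, of both sexes, of a Crh-Cre line crossed with a line that carries a Cre-dependent eGFP-L10a, a green fluorescent protein fused to a ribosomal protein, so each animal of each group carried both transgenes and the tag marked cells with present or past Crh-Cre activity. Punches of the amygdala were taken from 1 mouse per sample, the tagged ribosomes were pulled down (translating ribosome affinity purification, TRAP) and the bound RNA was sequenced. Tone-alone mice (TA, n = 16) heard 5 tones, fear-conditioned mice (FC, n = 12) received 5 tones paired with foot shock, and extinction mice (EXT, n = 16) were conditioned with 5 pairings and on the next day heard 30 tones without shock. Because the punch also holds untagged cells, a lower level in such a bulk sample can mean fewer cells of a type or less RNA per cell, and these cannot be told apart. Values are log2 cpm, that is, read counts scaled to the size of the library, and differences are log2(fold changes).

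The 44 libraries held between 12802113 and 20440351 counted reads, and the member with the lowest count in any mouse still had 63 reads. Batches, as the labels number them, were unevenly filled: batches 1, 2 and 5 held mice of every group, whereas batches 3 and 4 held 6 EXT mice and no others. Of 12 markers of GABAergic neurons of the central amygdala 11 were measured (Slc32a1 was not among the measured genes), and Crh, Gad1, Gad2, Sst, Penk and Prkcd were all present. In EXT vs. TA with batch as a number, 5 of the 11 were called lower in limma and 1 higher: Crh (-0.93), Gad1 (-0.61), Gad2 (-0.27), Sst (-0.70) and Pdyn (-0.92) lower and Meis2 (0.41) higher. With batch as categories limma gave -0.42 (p = 0.00486, FDR-adjusted p = 0.144) for Gad1 and -0.24 (p = 0.0139, FDR-adjusted p = 0.159) for Gad2. The others called with batch as a number gave Crh -0.32 (p = 0.152), Sst -0.13 (p = 0.526), Pdyn -0.21 (p = 0.397) and Meis2 0.12 (p = 0.329). Of the rest Prkcd (-0.52, p = 0.0627), Tac2 (-0.20) and Nts (-0.20) were negative, and Penk (0.08) and Tac1 (0.23) positive. No marker of the 11 was called with that term. The summed level of the 11 was 2074 to 3560 cpm in the EXT mice of batches 3 and 4, 2251 to 8852 cpm in the other 10 EXT mice and 3456 to 7777 cpm in TA mice. The sum of 7 oligodendrocyte markers went the other way, with a median of 7071 cpm in the EXT mice of batches 3 and 4 against 2984 cpm in the other EXT mice and 3366 cpm in TA mice, and the sum of 7 astrocyte markers had medians of 2019, 1255 and 1135 cpm in the same order. In FC mice the medians were 5140 cpm for the neuronal markers, against 5639 cpm in TA mice, 3341 cpm for oligodendrocytes and 1741 cpm for astrocytes. No marker of 4 for endothelial cells was measured, and 4 of 6 choroid plexus markers summed to between 186 and 51048 cpm over all mice, with medians of 6543 cpm in TA, 1624 cpm in FC and 2609 cpm in EXT mice. The part of these markers in the differences below was not tested.

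The ligases and E2 genes covered a wide range of levels. Scaled to the length of all exons of a gene, the median member had 3.99 log2 cpm per kb, beside 3.58 over the 8006 measured genes that could be placed on the annotation. By family the median level per kb was 4.80 for E2 genes, 3.85 for F-box genes, 3.58 for TRIM genes, 3.44 for RING genes and 2.91 for the 3 HECT genes. Rnf187, a RING protein known as a coactivator of AP-1, stood highest with a median of 9.05 log2 cpm per kb and a range over mice of 8.47 to 9.53. It was followed by Rnf7, the RING subunit of cullin-5 ligases, at 8.10 (7.32 to 8.94) and by Ube2b, an E2 of DNA damage tolerance, at 7.78 (7.08 to 8.25). The ranges of Rnf7 and Ube2b overlapped, and 27.4% of the 50-base stretches of Rnf7 also occur in other genes. At the low end stood Fbxl20 (0.53), Rnf8 (0.40), a ligase of the DNA damage response, and Trim24 (0.10 log2 cpm per kb), a nuclear cofactor, and their ranges overlapped. Ube3a ranked 129 of 151 at 2.27 log2 cpm per kb of exon, on an exon length of 20626 bases.

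**Figure D1:**
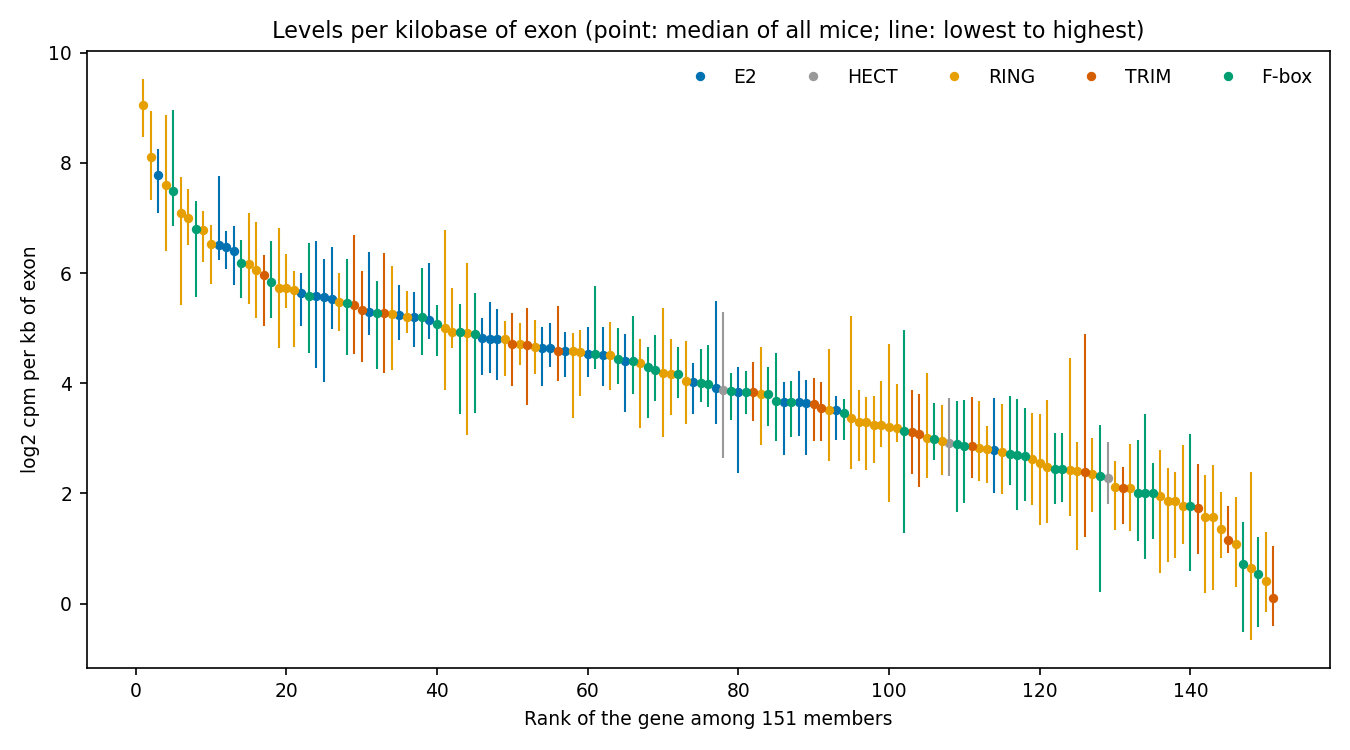
Level of each of the 151 genes, as log2 cpm per kb of exon on the vertical axis, against its rank on the horizontal axis, coloured by family. Points are medians of 44 mice and lines run from the lowest to the highest mouse. RING genes run from Rnf187 at 9.05, the highest member, to Rnf8 at 0.40, and the TRIM gene Trim24 is lowest at 0.10. E2 genes run from 2.78 to 7.78 with a median of 4.80.

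The first question was whether these genes differed between EXT mice and mice that heard tones alone. EXT mice had the shocks, a further day and a new context besides the extinction tones. The parts of these in EXT vs. TA cannot be told apart. The study's methods name batch and sex as covariates and do not say whether batch entered as a number or as categories, so both were fitted. With sex and the batch number as covariates, 34 of the 151 members (22.5%) passed an FDR-adjusted p value of 0.05, 18 higher and 16 lower in EXT mice, where 21.4% of all 8203 genes passed, 10.4% higher and 11% lower. Without Pja1 and Pja2 the count was 32 of 149 (21.5%). The share of members called was close to that of all genes, and the median difference was 0.01 for the members and 0.01 for all genes. At an unadjusted p under 0.05 the counts were 31 higher and 27 lower (38.4% of members, beside 37.8% of all genes, 19.1% higher and 18.7% lower). Counts by family went in different directions. Of the E2 genes 5 of 29 were called higher and 0 lower, of the TRIM genes 1 of 18 higher and 7 lower (38.9%), of the RING genes 9 of 60 higher and 7 lower, of the F-box genes 3 of 41 higher and 2 lower, and 0 of 3 HECT genes were called. These are counts over chosen lists, and no test compared one family with another.

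When batch was instead entered as categories, EXT and TA mice were compared within batches. In limma 0 of the 151 members then passed the FDR threshold, with or without voom precision weights. Over all genes 2 of 8203 did (0.0244%). The study's own list of genes past that threshold in EXT vs. TA was longer and held Pja1. At an unadjusted p under 0.05 there were 33 members (21.9%), 9 higher and 24 lower, beside 21.1% of all genes, 10.2% higher and 11% lower. The TRIM genes again stood on the lower side, with 9 of 18 lower and 0 higher at that level and a median difference of -0.16, and 13 of the 18 differences were negative. Of the E2 genes 3 were higher and 1 lower, with a median difference of 0.06 and 23 of 29 differences positive. The matching shares of signs over all genes are not given here, so these counts of signs are a description. Among F-box genes 2 were higher and 8 lower, and among RING genes 4 higher and 5 lower.

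All 34 members called with batch as a number kept their direction with batch as categories, where 16 had an unadjusted p under 0.05 and the median ratio of the sizes was 0.600. Their direction also stayed with the log2 library size as a covariate, with array weights, and without batches 3 and 4, where 0 passed the FDR threshold and 5, 27 and 17 reached an unadjusted p under 0.05. Over all 151 members 6, 36 and 31 did so (3.97%, 23.8% and 20.5%), beside 5.47%, 22.1% and 18.8% of all genes, and the share of all genes past the FDR threshold was 0%, 0.0610% and 0.0366%. Library size went with the groups, with medians of 15412341 reads in EXT mice and 18015590 in TA mice. These 34 were chosen by their difference in the same mice, so their agreement between fits and batches is a description. Within each of batches 1, 2 and 5, 15 of the 16 members called lower had a lower mean in EXT than in TA mice, the exception being Rnf6 in batch 5, and 15 of the 18 called higher had a higher mean, the exceptions being Rnf10 in batch 1 and Fbxw5 and Rnf141 in batch 5. Over all 151 members 37 were lower and 29 higher in each of the 3 batches (24.5% and 19.2%), beside 19.3% and 19.2% of all genes. The 6 EXT mice of batches 3 and 4 have no TA or FC counterpart, so that there batch and group cannot be told apart.

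**Figure D2:**
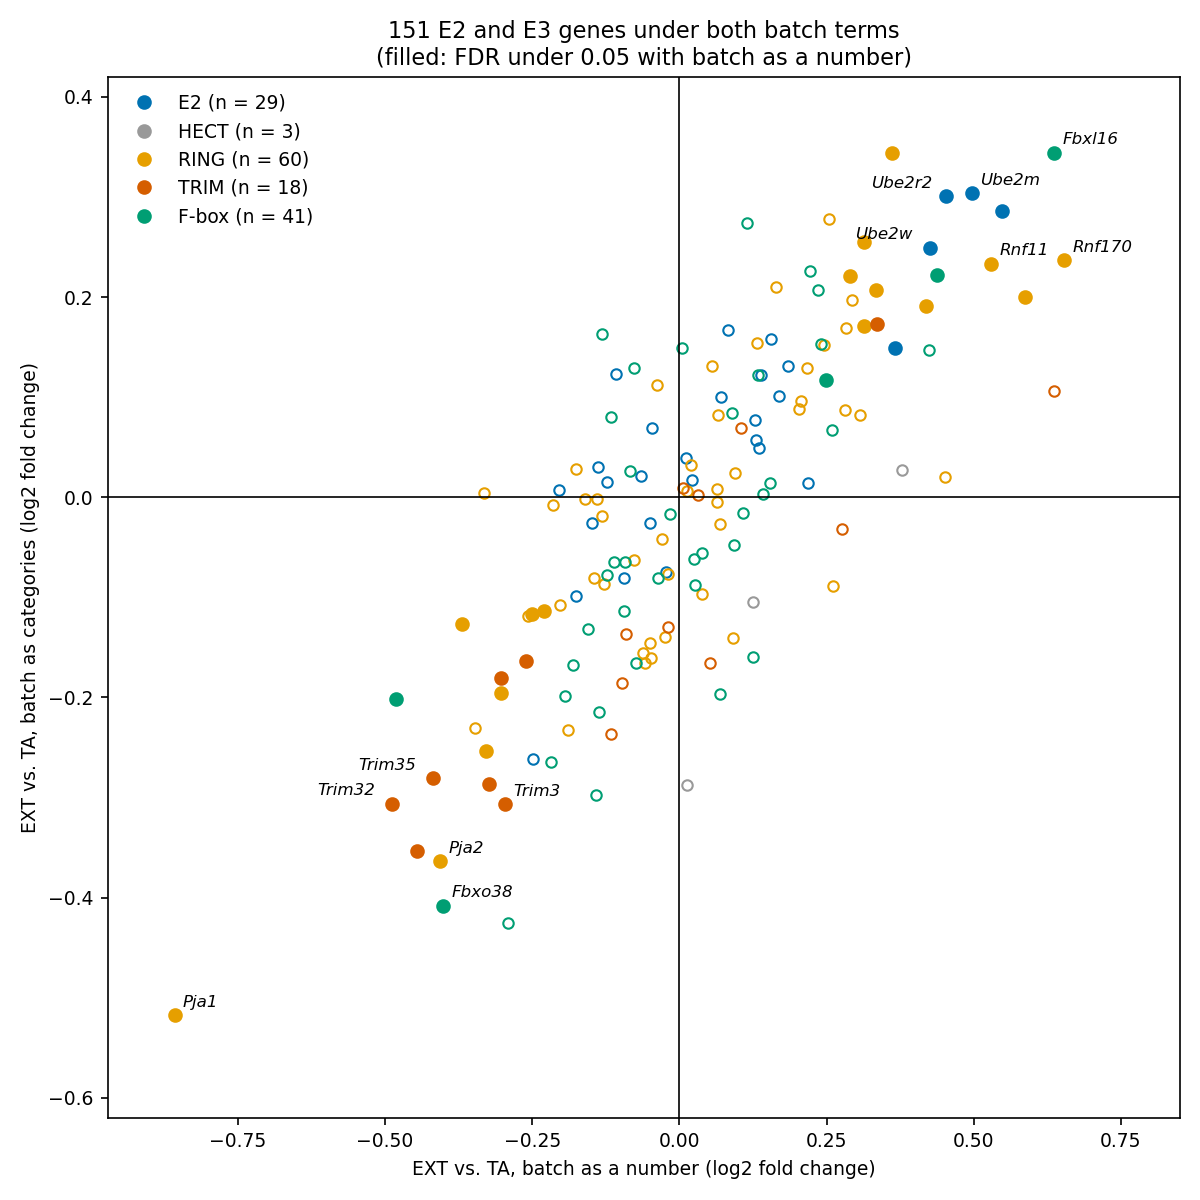
Log2(fold change) of EXT vs. TA for the 151 genes with batch as a number (horizontal) and as categories (vertical), coloured by family, with filled points for the 34 at an FDR-adjusted p under 0.05 on the horizontal axis. All filled points lie in the lower left or the upper right, and Pja1 lies farthest out at -0.86 and -0.52.

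Among the E2 genes, those called were Ube2m, Ube2r2, Ube2q2, Ube2w and Ube2d-ps, each higher in EXT mice. Ube2m, which conjugates not ubiquitin but the related NEDD8 that switches cullins on, lies at chr7:13035120-13038275, minus strand. Its lowest, median and highest log2 cpm were 7.48, 7.66 and 8.01 in TA mice, 7.49, 7.70 and 8.03 in FC mice and 7.51, 7.97 and 8.99 in EXT mice. The groups overlapped, with 15 of 16 EXT mice above the TA median and 7 above the highest TA mouse, 5 of them from batches 3 and 4. The log2(fold change) was 0.50 ± 0.12 (SE; p = 0.000155, FDR-adjusted p = 0.0130) with batch as a number and 0.30 ± 0.11 (p = 0.0114, FDR-adjusted p = 0.155) with batch as categories, and the difference of means was 0.24, 0.55 and 0.16 in batches 1, 2 and 5.

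Ube2r2 (Cdc34b), an E2 that extends ubiquitin chains on cullin ligases, was called in the same direction. Its log2 cpm values (lowest, median, highest) were 6.94, 7.13 and 7.42 in TA mice, 6.97, 7.35 and 7.68 in FC mice and 6.87, 7.49 and 8.25 in EXT mice, so the groups overlapped although 14 of 16 EXT mice exceeded the TA median. The log2(fold change) was 0.45 ± 0.11 (SE; p = 0.000261, FDR-adjusted p = 0.0130) and, within batches, 0.30 ± 0.11 (p = 0.0110, FDR-adjusted p = 0.155). Ube2w, which joins ubiquitin to the amino terminus of proteins, differed by 0.43 (FDR-adjusted p = 0.0320) and Ube2q2 by 0.37 (FDR-adjusted p = 0.0278), the latter with 16.4% of its 50-base stretches shared with other genes, mostly Gm4895. The pseudogene Ube2d-ps differed by 0.55 ± 0.15 (SE; p = 0.00108, FDR-adjusted p = 0.0169) and by 0.29 ± 0.15 (p = 0.0619, FDR-adjusted p = 0.259) within batches. On the lower side with batch as categories was Ube2o, a large enzyme that combines E2 and E3 activity, at -0.26 (p = 0.0240).

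The values of the 3 HECT genes depended on the batch term. Ube3a had log2 cpm values (lowest, median, highest) of 6.21, 6.61 and 7.30 in TA mice, 6.31, 6.70 and 7.22 in FC mice and 6.18, 6.62 and 7.30 in EXT mice, with 8 EXT mice on either side of the TA median. Its log2(fold change) was 0.12 (-0.10 to 0.35, 95% confidence interval, p = 0.270) with batch as a number and -0.11 (-0.30 to 0.09, p = 0.271) with batch as categories, so the sign turned and neither fit called it. Exons of genes on the other strand cover 27.3% of its exon bases, among them Snhg14, and whether the counting used strand is not given in the sources used here. Ube3c gave 0.01 (p = 0.922) and -0.29 (p = 0.00659) in the 2 fits, and Ube3b 0.38 (p = 0.0211) and 0.03 (p = 0.833).

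Of the RING ligases, Pja1 and its paralog Pja2 both had lower values in EXT mice, and Pja1 showed the largest difference of all members in either direction in this comparison. Pja1 (praja1; chrX:99465734-99471273, minus strand) had lowest, median and highest log2 cpm values of 8.63, 8.99 and 9.47 in TA mice, 7.98, 8.87 and 9.38 in FC mice and 7.15, 8.37 and 9.11 in EXT mice. The groups overlapped at the top, with 10 of 16 EXT mice below the lowest TA mouse. In batches 3 and 4 the values of 5 EXT mice lay between 7.15 and 7.59 and that of 1 female of batch 3 was 9.11, while the other 10 EXT mice lay between 7.52 and 9.00. The log2(fold change) was -0.86 ± 0.18 (SE; p = 3.69e-05, FDR-adjusted p = 0.0130) with batch as a number, and -0.52 ± 0.17 (p = 0.00439, FDR-adjusted p = 0.144) with batch as categories. The study itself names Pja1 among its top genes of this comparison, lower in EXT mice, at a log2(fold change) smaller in size than both. The source of that gap was not tested. Within batches the difference of means was -0.59, -0.96 and -0.18 in batches 1, 2 and 5, lower in each. Leaving out any 1 mouse moved the value with batch as a number between -0.91 and -0.78, and the FDR-adjusted p stayed at or below 0.0272.

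Pja2 (praja2; chr17:64281005-64331916, minus strand) is known to mark the regulatory subunits of protein kinase A for degradation. Its log2 cpm values (lowest, median, highest) were 8.66, 9.03 and 9.46 in TA mice, 8.35, 8.90 and 9.24 in FC mice and 8.18, 8.56 and 9.83 in EXT mice. The highest EXT value came from the same female of batch 3 and was the only one above the TA range, whereas 10 of 16 EXT mice lay below that range. It differed by -0.41 ± 0.11 (SE; p = 0.00112, FDR-adjusted p = 0.0169) and, within batches, by -0.36 ± 0.13 (p = 0.00838, FDR-adjusted p = 0.149), and by -0.43, -0.62 and -0.15 in batches 1, 2 and 5. No 50-base stretch of the Pja1 or Pja2 exons occurs in another gene.

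**Figure D3:**
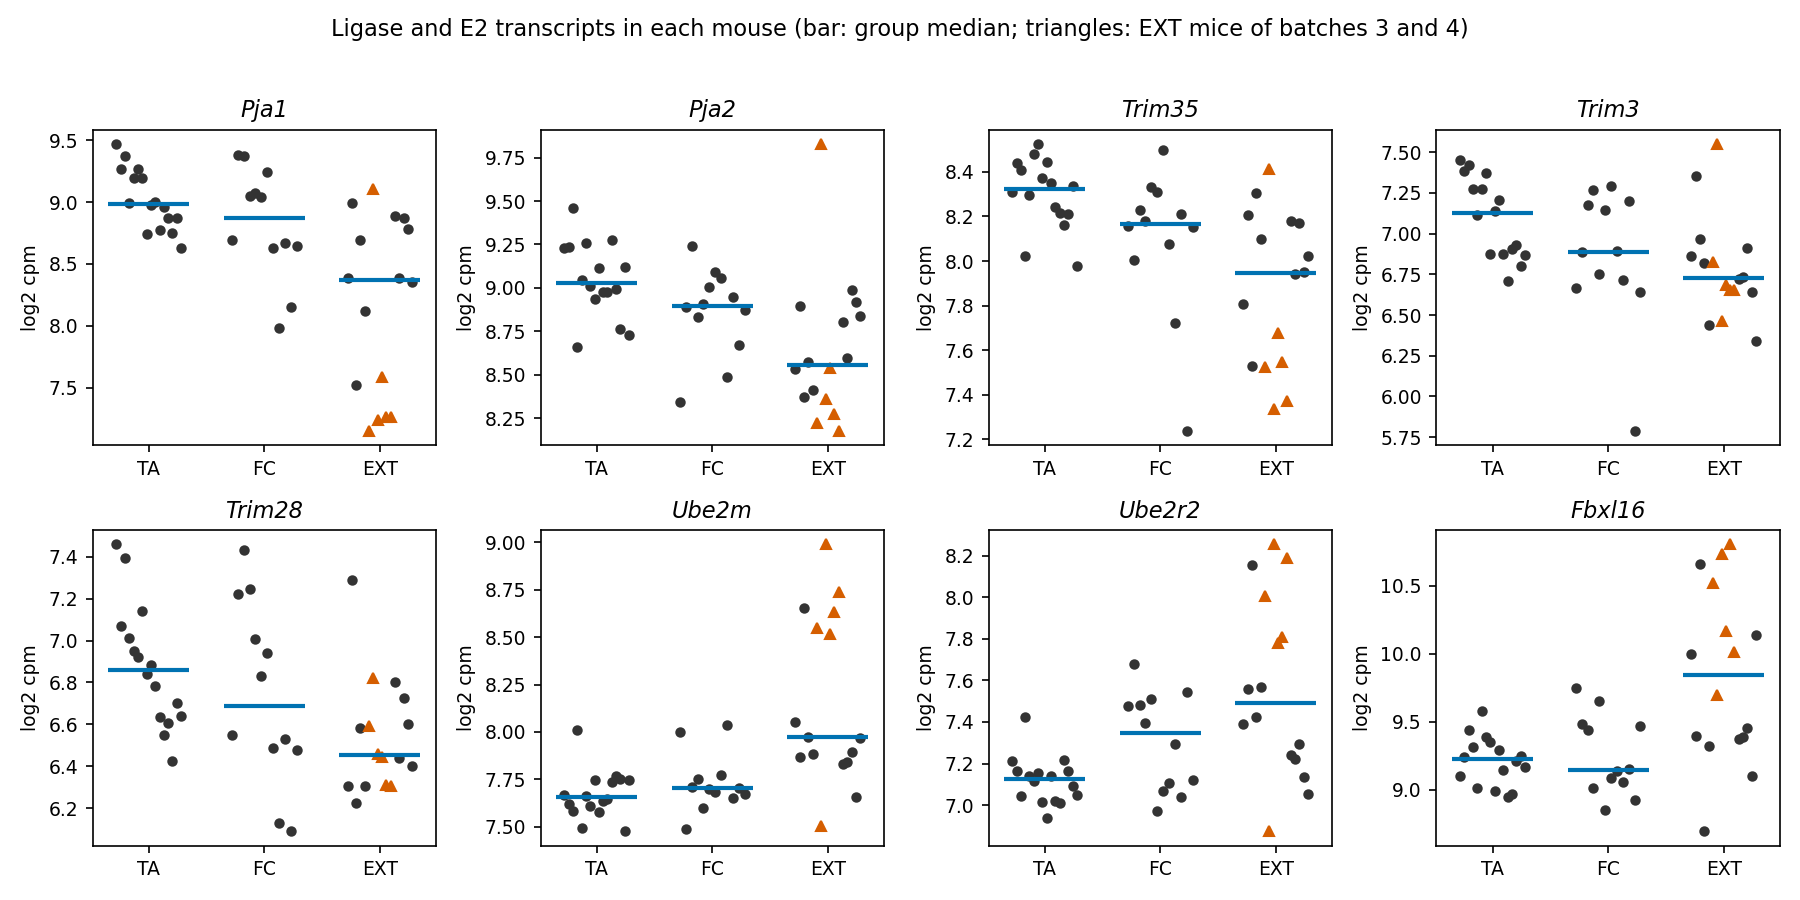
Log2 cpm (vertical axis of each panel) of 8 genes in each mouse of the TA, FC and EXT groups, with the group median as a bar and the EXT mice of batches 3 and 4 as triangles. Pja1, Pja2 and the 3 TRIM genes had lower EXT than TA medians (8.37 against 8.99 for Pja1), Ube2m, Ube2r2 and Fbxl16 had higher ones (9.85 against 9.22 for Fbxl16), and 1 triangle sits apart from the other 5 for Pja1, Pja2 and Ube2m.

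A further 14 RING genes were called, 9 higher and 5 lower. Rnf166 and Rnf114, 2 related ligases, differed by 0.31 ± 0.09 (SE; p = 0.00151, FDR-adjusted p = 0.0186) and 0.42 ± 0.12 (SE; p = 0.00160, FDR-adjusted p = 0.0189). Within batches Rnf166 gave 0.25 (p = 0.0161) and Rnf114 0.19 (p = 0.0610). The largest rise among them was that of Rnf170, which degrades the inositol trisphosphate receptor, at 0.65 (FDR-adjusted p = 0.0193), followed by Rnf141 at 0.59 and Rnf11 at 0.53. Rnf170 and Rnf141 gave 0.24 (p = 0.156) and 0.20 (p = 0.153) with batch as categories. Rnf10, Rnf165, Rnf44 and Rnf26 were also called higher, by 0.29 to 0.36, and 65.1% of the 50-base stretches of Rnf26 occur in other genes, mostly Gm49380. Called lower were Rnf20 (-0.33), which places ubiquitin on histone H2B, Rnf2 (-0.30), the Polycomb ligase of histone H2A, and Rnf6, Rnf25 and Rnf185 (-0.37, -0.23 and -0.25). Rnf5, a ligase of the endoplasmic reticulum membrane, was among the members with the smallest p on the higher side with batch as categories (0.21 ± 0.08 (p = 0.0127, FDR-adjusted p = 0.158)), with an antisense transcript over 24.7% of its exon bases.

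The TRIM genes called lower were Trim3, Trim23, Trim26, Trim27, Trim28, Trim32 and Trim35, and Trim24 was called higher. Trim35 had lowest, median and highest log2 cpm values of 7.98, 8.32 and 8.53 in TA mice, 7.24, 8.17 and 8.50 in FC mice and 7.34, 7.95 and 8.41 in EXT mice. The groups overlapped, yet 15 of 16 EXT values were under the median of the TA mice and 9 under their lowest. Its log2(fold change) was -0.42 ± 0.10 (SE; p = 0.000190, FDR-adjusted p = 0.0130), and -0.28 ± 0.10 (p = 0.00795, FDR-adjusted p = 0.149) within batches.

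Trim3, a ligase of neurons known to act on scaffold proteins of the postsynaptic density, had log2 cpm values (lowest, median, highest) of 6.71, 7.13 and 7.45 in TA mice, 5.79, 6.89 and 7.29 in FC mice and 6.34, 6.73 and 7.55 in EXT mice. EXT and TA mice overlapped, and so did FC mice, the lowest of which stood below every EXT mouse. The difference was as large within batches (-0.31 ± 0.09 (p = 0.00277, FDR-adjusted p = 0.143)) as with batch as a number (-0.30 ± 0.08 (SE; p = 0.00113, FDR-adjusted p = 0.0169)), and the EXT median was 6.67 in batches 3 and 4 and 6.78 in batches 1, 2 and 5. It was lower in every batch that held both groups, by -0.28, -0.41 and -0.23 in batches 1, 2 and 5.

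Trim28, the corepressor that KRAB zinc finger proteins recruit to silence transposable elements, had log2 cpm values (lowest, median, highest) of 6.42, 6.86 and 7.46 in TA mice, 6.09, 6.69 and 7.43 in FC mice and 6.23, 6.45 and 7.29 in EXT mice. It lay below the TA median in 15 of 16 EXT mice and differed by -0.32 ± 0.09 (SE; p = 0.00119, FDR-adjusted p = 0.0170) and by -0.29 ± 0.10 (p = 0.00725, FDR-adjusted p = 0.149) within batches, with a small difference of -0.02 in batch 5. Trim28 ends 4084 bases before Ube2m on chr7, on the opposite strand, and these neighbours were called in opposite directions. Trim32, mutated in a limb-girdle muscular dystrophy, had log2 cpm values (lowest, median, highest) of 6.77, 7.0 and 8.05 in TA mice, 5.95, 7.03 and 7.76 in FC mice and 5.87, 6.60 and 7.73 in EXT mice. Its difference was -0.49 ± 0.14 (SE; p = 0.00131, FDR-adjusted p = 0.0177) and -0.31 ± 0.12 (p = 0.0125, FDR-adjusted p = 0.158) within batches, and by batch -0.56, -0.58 and -0.0027 in batches 1, 2 and 5. The remaining called genes of the family were Trim23 at -0.45, Trim27 at -0.30, Trim26 at -0.26 and, on the higher side, Trim24 at 0.34. Of the 18 TRIM genes 9 had a lower EXT mean in each of batches 1, 2 and 5 and 1 a higher one (50.0% and 5.56%), beside 19.3% and 19.2% of all genes. Of the 29 E2 genes 3 were lower and 12 higher in each (10.3% and 41.4%).

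**Figure D4:**
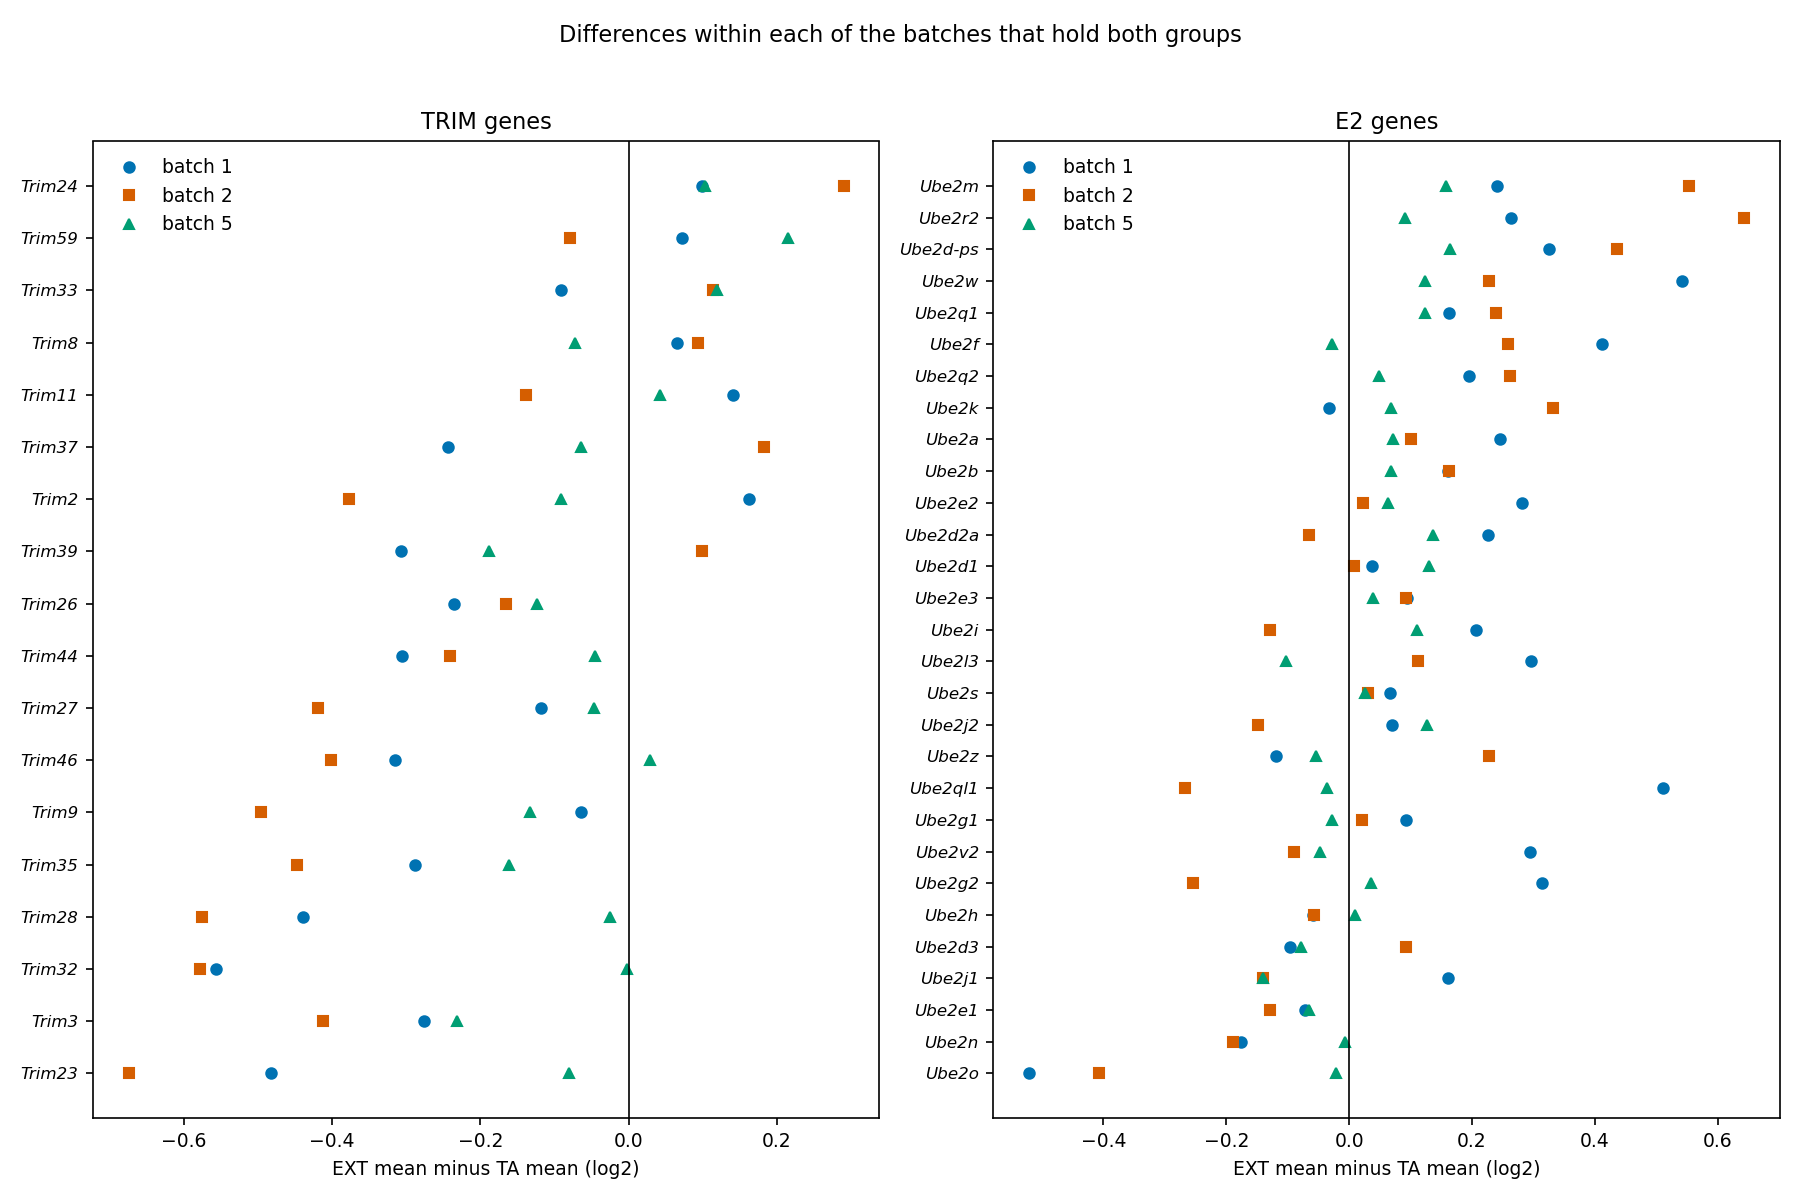
Difference between the EXT and TA means (log2, horizontal axis) of each TRIM gene (left) and each E2 gene (right) within batches 1, 2 and 5, with genes ordered by their log2(fold change) with batch as categories. All 3 points lie left of 0 for 9 of 18 TRIM genes and right of 0 for 12 of 29 E2 genes.

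The called F-box genes were Fbxl16, Fbxw2 and Fbxw5, higher, and Fbxo38 and Fbxo25, lower. Fbxl16, which ranked 5 of 151 in level per kb, had lowest, median and highest log2 cpm values of 8.95, 9.22 and 9.58 in TA mice, 8.85, 9.14 and 9.75 in FC mice and 8.69, 9.85 and 10.80 in EXT mice. The ranges overlapped, with 9 of 16 EXT mice above all TA mice, and the EXT median was 10.34 in batches 3 and 4 and 9.39 in the other batches. It differed by 0.64 ± 0.16 (SE; p = 0.000392, FDR-adjusted p = 0.0139) and by 0.34 ± 0.15 (p = 0.0333, FDR-adjusted p = 0.202) within batches. Fbxw2 had log2 cpm values (lowest, median, highest) of 7.55, 7.75 and 7.95 in TA mice, 7.57, 7.78 and 7.96 in FC mice and 7.50, 8.00 and 9.01 in EXT mice and differed by 0.44 ± 0.12 (SE; p = 0.000995, FDR-adjusted p = 0.0168) and by 0.22 ± 0.11 (p = 0.0599, FDR-adjusted p = 0.256) within batches.

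Fbxo38, known for the turnover of the receptor PD-1 in T cells, had log2 cpm values (lowest, median, highest) of 5.06, 5.46 and 6.27 in TA mice, 4.85, 5.33 and 5.61 in FC mice and 4.66, 5.01 and 6.15 in EXT mice. In 9 of 16 EXT mice it lay below the lowest TA mouse. It differed by -0.40 ± 0.11 (SE; p = 0.00112, FDR-adjusted p = 0.0169) and by -0.41 ± 0.13 (p = 0.00299, FDR-adjusted p = 0.143) within batches, and its EXT medians were 4.99 and 5.01 in and outside batches 3 and 4. Fbxo10 was not called with batch as a number (-0.29, FDR-adjusted p = 0.0945), and within batches gave -0.42 ± 0.14 (p = 0.00395, FDR-adjusted p = 0.144). Fbxo21, Fbxo3, Fbxw8, Fbxw11, Fbxo34 and Fbxo18 also had an unadjusted p under 0.05 on the lower side within batches, at -0.30, -0.20, -0.26, -0.20, -0.21 and -0.17.

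Pja2, Trim28, Trim32 and Ube2r2 are shown as examples, not the full set, of the called members with 1 listed start site. For each the 250 bases before that site are given. TGACG (or CGTCA), the short form of the cAMP response element, and the GC box GGGCGG (or CCGCCC) are in capitals. The sequences come from RefSeq on GRCm38.p6, run 5′ to 3′ on the strand of the gene and lie at chr17:64331884-64332133 on the minus strand and at chr7:13023902-13024151, chr4:65604736-65604985 and chr4:41135771-41136020 on the plus strand.
Pja2: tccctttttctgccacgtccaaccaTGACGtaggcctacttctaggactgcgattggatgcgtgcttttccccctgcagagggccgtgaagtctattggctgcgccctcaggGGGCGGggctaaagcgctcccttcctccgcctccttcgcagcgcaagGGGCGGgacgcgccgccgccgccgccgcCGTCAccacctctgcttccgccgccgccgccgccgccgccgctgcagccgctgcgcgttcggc
Trim28: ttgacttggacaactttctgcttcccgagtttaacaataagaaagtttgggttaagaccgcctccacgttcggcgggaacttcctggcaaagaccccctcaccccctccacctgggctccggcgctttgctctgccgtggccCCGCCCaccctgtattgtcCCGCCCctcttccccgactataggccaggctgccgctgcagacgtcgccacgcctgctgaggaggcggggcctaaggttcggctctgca
Trim32: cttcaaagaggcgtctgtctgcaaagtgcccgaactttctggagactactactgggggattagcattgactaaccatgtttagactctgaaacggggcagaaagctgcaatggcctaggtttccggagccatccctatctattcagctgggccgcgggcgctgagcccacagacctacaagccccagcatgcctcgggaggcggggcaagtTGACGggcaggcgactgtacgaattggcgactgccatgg
Ube2r2: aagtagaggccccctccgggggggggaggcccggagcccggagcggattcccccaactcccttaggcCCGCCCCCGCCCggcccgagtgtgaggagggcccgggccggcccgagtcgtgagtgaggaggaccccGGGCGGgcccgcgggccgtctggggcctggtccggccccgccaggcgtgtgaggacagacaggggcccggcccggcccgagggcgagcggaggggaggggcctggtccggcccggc
The Pja2 stretch holds 2 matches to TGACG and 2 to the GC box, that of Trim28 0 and 2, that of Trim32 1 and 0, and that of Ube2r2 0 and 3. RefSeq windows were at hand for 116 of the 151 members (164 windows). On either strand, TGACG occurred in 29.9% of them, beside 28.1% of the 8472 windows of all measured genes and 17.8% of all 32851 windows, and the GC box in 64.0%, 59.1% and 32.7%. The full element TGACGTCA, which overlaps TGACG, occurred in 2.44% of the members' windows and 2.87% of those of measured genes, and CCAAT in 28.7% and 35.0%. A match is a run of letters, not a bound site.

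Fear conditioning alone was compared with tones alone in the same way. These comparisons share the TA mice with EXT vs. TA, so the values are given side by side and the one is no independent check of the other. No member (0 of 151) passed the FDR threshold with either batch term, and 0 genes of 8203 did. At an unadjusted p under 0.05 there were 18 members with batch as a number (7 higher, 11 lower, 11.9% beside 10.4% of all genes, 4.22% higher and 6.18% lower) and 29 with batch as categories (17 higher, 12 lower, 19.2% beside 16.8%, of which 8.61% higher and 8.20% lower). By family, 9 of 29 E2 genes were higher and 0 lower with batch as categories (31.0%), and 22 of 29 differences were positive. TRIM genes had 5 lower and 1 higher with that term, and 14 of 18 differences were negative. Here too the shares of signs over all genes are not given. The median difference was 0.05 for E2 genes and -0.13 for TRIM genes, where EXT vs. TA had 0.06 and -0.16.

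The E2 genes in question were Ube2w (0.28), Ube2ql1 (0.25), Ube2q2 (0.20), Ube2d1 (0.18), Ube2v2, Ube2r2, Ube2e3, Ube2e2 and Ube2a, the last 5 at 0.12 to 0.16. Ube2d1, an E2 that serves many ligases, had lowest, median and highest log2 cpm values of 6.39, 6.61 and 6.79 in TA mice, 6.42, 6.79 and 7.04 in FC mice and 6.25, 6.79 and 7.05 in EXT mice. FC and TA mice overlapped, with 9 of 12 FC mice above the TA median, and the log2(fold change) was 0.16 (p = 0.0179) with batch as a number and 0.18 (p = 0.00384) as categories. For Ube2q2 the same values were 0.18 (p = 0.0142) and 0.20 (p = 0.00308).

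Rnf11, a small RING protein of endosomes, had the smallest p of any member with batch as categories in FC vs. TA. Its log2 cpm values (lowest, median, highest) were 8.49, 9.65 and 9.84 in TA mice, 8.75, 9.84 and 10.17 in FC mice and 8.66, 9.91 and 10.97 in EXT mice. With batch as a number the FC difference was 0.16 (p = 0.217), and with categories it was 0.26 ± 0.06 (p = 7.12e-05, FDR-adjusted p = 0.0904), with batch means of FC above TA by 0.19, 0.22 and 0.33 in batches 1, 2 and 5. In EXT vs. TA it was called at 0.53 with batch as a number and gave 0.23 (p = 0.0540) with categories. The F-box gene Fbxo7, mutated in a form of parkinsonism, had 10 of 12 FC mice above the TA median and differed by 0.20 (p = 0.0131) and 0.19 (p = 0.0139). Its EXT difference was 0.15 (p = 0.0846) and 0.01 (p = 0.851).

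On the lower side in FC mice stood Trim32 (-0.25, p = 0.0299 and -0.30, p = 0.00665), Trim3 (-0.26, p = 0.0194 and -0.25, p = 0.0277), Fbxo38 (-0.23, p = 0.0166 and -0.24, p = 0.0109) and Fbxo42 (-0.25, p = 0.0127 and -0.23, p = 0.0191), each value first with batch as a number and then as categories. Fbxw4 gave -0.26 (p = 0.0682) and -0.32 (p = 0.0103), at a median of 3.44 log2 cpm in TA mice and with exons of Gm17018 over 21.4% of its exon bases on the other strand. Fbxw4 gave, in EXT vs. TA, -0.08 (p = 0.574) and 0.13 (p = 0.240). Pja1 and Pja2 had FC differences of -0.23 (p = 0.0249) and -0.19 (p = 0.0566) with batch as categories, beside -0.52 and -0.36 in EXT mice.

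**Figure D5:**
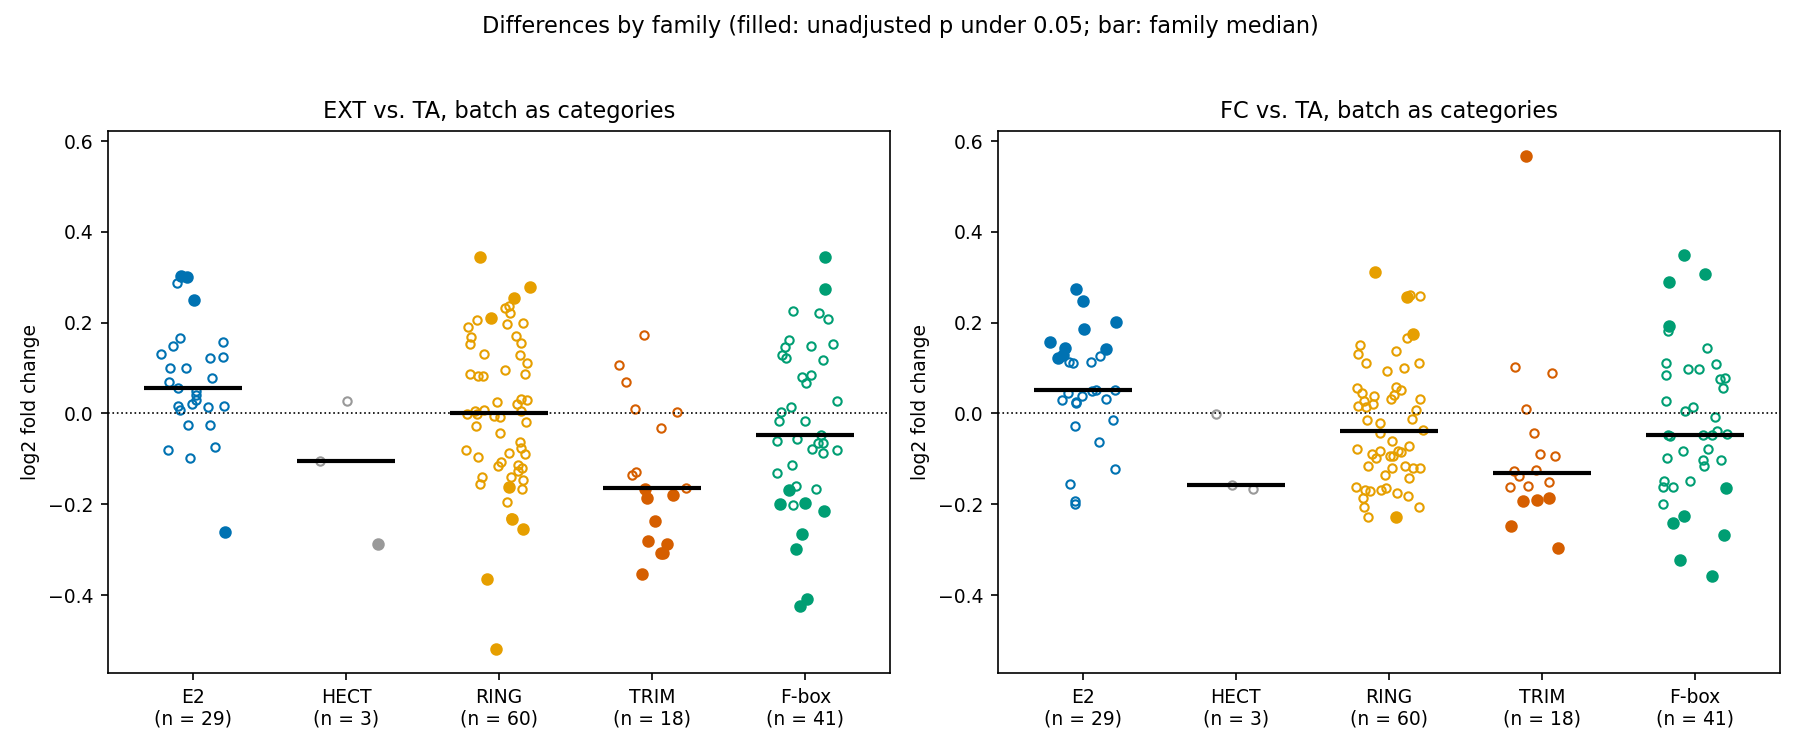
Log2(fold change) with batch as categories of each gene by family, for EXT vs. TA (left) and FC vs. TA (right), with filled points at an unadjusted p under 0.05 and a bar at the family median. TRIM genes lie mostly below 0 (medians -0.16 and -0.13) and E2 genes mostly above (0.06 and 0.05); both panels use the same TA mice and none of the points passed the FDR threshold.

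Extinction was also set directly against conditioning. In EXT vs. FC 0 of 151 members passed the FDR threshold in limma with either batch term. At an unadjusted p under 0.05 there were 28 members with batch as a number (18 higher, 10 lower, 18.5% beside 19.3% of all genes, 11% higher and 8.35% lower) and 6 with batch as categories (4 higher, 2 lower, 3.97% beside 4.19%, 2.22% higher and 1.97% lower). Fbxl16 had the smallest p of the former at 0.63 (p = 0.00277, FDR-adjusted p = 0.219), followed by Rnf44 at 0.36, Rnf114 at 0.46 and Ube2m at 0.43. With batch as categories Fbxw4 came first (0.41, p = 0.0136, FDR-adjusted p = 0.975). Pja1 differed between EXT and FC mice by -0.62 (-1.08 to -0.16, 95% confidence interval) with batch as a number and by -0.24 (-0.69 to 0.21) with categories, the latter interval reaching past 0.

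Males and females were fitted apart and their difference tested as an interaction, all with batch as a number. Batches 3 and 4 hold EXT mice of both sexes and no TA mice. Values of single genes with batch as categories are not given here for each sex. In EXT vs. TA 43 members had an unadjusted p under 0.05 in males (24 higher, 19 lower, 28.5% beside 29% of all genes, 13.4% higher and 15.6% lower) and 15 in females (9 higher, 6 lower, 9.93% beside 14.9%, 8.90% higher and 5.99% lower). In limma 0 members passed the FDR threshold in either sex, beside 0.0853% of all genes in males and 0 in females. Pja1 differed by -0.89 ± 0.21 in males and by -0.82 ± 0.30 in females, and the difference between the sexes (males minus females) was -0.06 with a 95% confidence interval of -0.83 to 0.71. Pja2 differed by -0.44 in males and -0.37 in females, and Ube2m by 0.51 and 0.48. For the interaction 6 members had an unadjusted p under 0.05 (3.97%, beside 4.13% of all genes) and 0 passed the FDR threshold. Fbxo11 had the smallest p of them, with a difference of 0.51 (p = 0.00233, FDR-adjusted p = 0.998), and it is named for that after its value was seen. In FC vs. TA an unadjusted p under 0.05 was reached by 6 members in males (3 higher, 3 lower, 3.97% beside 7.23% of all genes, 2.45% higher and 4.78% lower) and by 18 in females (5 higher, 13 lower, 11.9% beside 8.98%, 4.29% higher and 4.69% lower), and 0 passed the FDR threshold in either sex. Pja1 gave -0.13 ± 0.12 (SE; p = 0.290) in FC males and -0.36 ± 0.16 (SE; p = 0.0389) in FC females, with a difference of 0.22 between the sexes (-0.17 to 0.61, 95% confidence interval). There 5 members had an unadjusted p under 0.05 for the interaction (3.31%, beside 6.58% of all genes) and 0 passed the FDR threshold.

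Other genes of the pathway were read from fixed lists for EXT vs. TA with batch as a number, where 10.4% of all genes were called higher and 11% lower. Of 6 measured E1 genes 3 were called lower (50%) and 0 higher, among them Uba1, the main ubiquitin E1, at -0.36 and Uba2, a subunit of the SUMO E1, at -0.40. Uba1 gave -0.39 within batches (p = 0.00406), and its FC difference was -0.31 (p = 0.00131).

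Of 17 measured SCF and cullin genes 1 (5.88%) was called higher (Dcun1d1, which helps to attach NEDD8 to cullins, at 0.24) and 3 (17.6%) lower (Cul1, the SCF scaffold, at -0.26, Cul5 at -0.30 and Ddb1, the adaptor of cullin-4, at -0.51). Of 48 measured ligases of other names 6 were called higher and 5 lower (12.5% and 10.4%), near the shares of all genes. The largest difference among the 48 was that of Xiap, a ligase that inhibits caspases, at 0.98 ± 0.21 (FDR-adjusted p = 0.0130), with 0.49 (p = 0.00723) within batches and 0.40 (p = 0.000492) in FC vs. TA. Nedd4, a HECT ligase of membrane receptors and channels, was lower by -0.49 and gave -0.35 within batches (p = 0.0249). None of these genes passed the FDR threshold with batch as categories in limma, where 2 of the 71 (2.82%) had an unadjusted p under 0.05 on the higher side and 14 (19.7%) on the lower, beside 10.2% and 11% of all genes.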

How the data were processed

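The deposited table holds 8203 genes in 44 mice. The authors used Trimmomatic 0.36 for trimming, STAR for alignment to GRCm38, edgeR to process the gene counts and voom to normalize them. A floor on cpm in every sample removed weak genes, and samples judged outlying were dropped. The deposited values are therefore log2 cpm in the form voom writes, with 0.5 reads added to each count. The counting tool and its use of strand are not given in the sources used here. All columns of the matrix are deposited in this form, and all could be mapped to a mouse by its animal number. Solving the formula back gave whole reads, within 0.05, for 360932 of 360932 values, and from these the library sizes.

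Differences were tested with limma 3.58.1 (R 4.3.3) on the deposited values, two-sided, with Benjamini-Hochberg adjustment over all 8203 genes, on the mice of the groups compared. Sex and batch were covariates, batch either as a number or as categories, since the study's methods name batch and sex but not the form of batch. Mice are separate animals, so the spread is that between animals. The interaction of group and sex tested the sexes. The fit was checked on simulated data, and its behaviour with batches that hold EXT mice only was not tested. Members were placed by symbol on GENCODE M21 (GRCm38), 1 of them through a RefSeq synonym. Python 3.11.15 served for the rest.

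The members and lists were chosen with earlier results of these data known. Named genes were Pja1, Pja2 and Ube3a, then, by smallest p and for each direction, 7 members in EXT vs. TA with batch as a number, 3 with batch as categories and 3 for either term in FC vs. TA, and the 3 highest and lowest levels per kb. Other genes are named because they were called or had an unadjusted p under 0.05, or lead a comparison. Alternatives were other weights, normalizations, filters and covariates, and leaving out batches or single mice. The last was chosen after seeing the data. A few genes of the marker and pathway lists are not reported here.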

Additional observations from a re-analysis of the deposited data

How the results depend on the processing

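In EXT vs. TA with batch as a number 34 members were called, and between 31 and 36 with all 3 groups in the fit, median-centred samples, a minimum mean log2 of 5, no batch term, quantile normalization, trended and robust eBayes or voom weights. With array weights, with batch as categories, with the log2 library size as a covariate and without batches 3 and 4 the count was 0 in each, at 36, 33, 6 and 31 members with an unadjusted p under 0.05 in place of 58. With batch as categories the count of 0 became 34 with batch as a number. Leaving out 1 mouse at a time gave 26 to 45. The median level per kb moved from 3.99 to 4.45 with the longest transcript in place of all exons. The cause of these changes was not tested.

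Counts at an unadjusted p under 0.05 moved by over 1.5 times in other places. In EXT vs. TA with categories 33 became 20 with array weights, 58 with batch as a number and 6 with library size. In FC vs. TA 18 became 7 with all 3 groups in the fit, 11 without a batch term and 29 with categories, and the 29 became 17 and 18 with all 3 groups and batch as a number. In EXT vs. FC 28 became 6 with categories, 10 with library size and 7 without batches 3 and 4, and the 6 became 19 with array weights and 28 with batch as a number. With batch as categories 43 became 22 in EXT males, 6 became 16 in FC males and 5 became 9 for the FC difference between the sexes.

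Among the named members 344 of the values under alternatives kept their direction and side of the threshold, 56 lost the call and 6 gained one. Each was taken in the comparison that names it, and there the sign turned for Ube3a only, which was called in no setting: in EXT vs. TA 0.12 became -0.11 with batch as categories and -0.11 without batches 3 and 4, and -0.11 became 0.12 with batch as a number. In FC vs. TA 0.03 became -0.0013 with categories, and -0.0013 became 0.020 with all 3 groups, 0.044 with array weights, 0.030 with batch as a number, 0.0089 with median-centred samples and 0.0039 with quantile normalization. No paired analysis was possible because each animal number occurs once, so the groups share no animals.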

Other observations

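Some members share sequence or position with other genes. Of the 151 members 8 share over 10% of their 50-base stretches with another gene: Rnf26 (65.1%), Rnf7 (27.4%), Rnf149 (22.6%), Fbxo34 (16.7%), Ube2q2 (16.4%), Rnf8 (14.2%), Rnf170 (13.5%) and Rnf5 (10.1%). Exons of genes on the other strand cover 76.8% of the exon bases of Rnf146, a ligase of the Wnt pathway, 33.4% of those of Fbxw8 and 28.6% of those of Ube2l3, the E2 of parkin, and values of these genes are uncertain to that extent. The members called higher and lower in EXT vs. TA had median exon lengths of 4284 and 4363.5 bases, and levels per kb with medians of 5.04 and 4.63.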
